A study of Rattus norvegicus with 15 samples.

Results

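The 5 microRNAs (miRNAs) described here, rno-miR-142-3p, rno-miR-142-5p, rno-miR-146a, rno-miR-150 and rno-miR-342-3p (given below without the species prefix rno), are known for their abundance in lymphocytes or in white blood cells at large. They were taken by name from the 350 rat miRNAs on the array, and each was read by 2 probes. RNA of whole hearts was hybridised to 15 arrays with 1 dye each, and the rats were male and of the Sprague-Dawley strain, with 5 arrays for each of 3 groups. The GF rats received streptozotocin at 60 mg/kg into the tail vein, had plasma glucose above 300 mg/dL, and were then fasted for 24 h and given insulin at 0.5 IU/kg into the peritoneum, so as to make plasma glucose fluctuate. DM rats received the streptozotocin alone and also had plasma glucose above 300 mg/dL, and Veh rats were exposed to vehicle. Streptozotocin is toxic to pancreatic beta cells, which make insulin. Since the GF rats alone were fasted and injected with insulin, the effects of fasting, insulin and fluctuating glucose cannot be told apart in a comparison with GF.

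A miRNA is cut from a hairpin RNA, and either strand of the stem can be loaded into an Argonaute protein. There its seed, bases 2 to 8, pairs with target messenger RNAs and represses them. The hairpin of miR-142 is made almost wholly in cells of the blood lineages and gives both miR-142-3p and miR-142-5p. miR-146a is induced by NF-kB and represses the adaptors Traf6 and Irak1 in human and mouse cells, which damps innate immune signalling. miR-150 is abundant in mature lymphocytes and represses the transcription factor Myb in mouse. miR-342-3p is found in lymphoid and myeloid cells, and its hairpin lies within Evl, a gene of the Ena/VASP family of actin regulators.

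The mature sequences are shown because they set apart the seeds of the 4 members that RefSeq's table (build GRCr8) held, and because the arms of miR-142 lie on 1 hairpin. They are written 5′ to 3′, with the seed in capitals.
miR-142-3p: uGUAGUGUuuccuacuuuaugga
miR-142-5p: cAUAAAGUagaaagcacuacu
miR-146a: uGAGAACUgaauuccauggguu
miR-342-3p: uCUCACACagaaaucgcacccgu
miR-146b: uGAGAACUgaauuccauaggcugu

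No 2 of these 4 members shared a seed. miR-146b, which is no member, is printed because it carries the seed of miR-146a and was the only other mature miRNA in the table to do so. With positions counted from 1 at the 5′ end and the base of miR-146a first, the pair differ by G18A and U21C, and miR-146b is 2 bases longer. RefSeq names the printed forms miR-146a-5p and miR-146b-5p.

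In the hairpin of miR-142 below, the capitals mark the 5p arm and then the 3p arm.
Mir142 hairpin: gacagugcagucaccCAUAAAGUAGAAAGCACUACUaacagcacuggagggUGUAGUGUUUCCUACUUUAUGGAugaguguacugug

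Its 87 bases lie on the plus strand of GRCr8 at chr10:73055104-73055190, within the span of the protein-coding gene Tspoap1. miR-142-5p is at chr10:73055119-73055139 and miR-142-3p at chr10:73055155-73055177. miR-146a is at chr10:28350053-28350074 on the minus strand, and its hairpin lies within the span of a long non-coding RNA gene, LOC134480673. miR-342-3p is at chr6:133329715-133329737 on the plus strand, within the spans of Evl and of the long non-coding RNA gene LOC102555052. The hairpin of miR-150 is at chr1:104741487-104741571, where the table has no spanning gene.

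Each array detected 166 to 190 miRNAs, and 165 passed the filter on dim probes and entered the tests. There were 5 pairs of arrays, each within a group, whose profiles were closer than the scanner software's stated error (reduced chi-square 0.243 to 0.630), and each pair was averaged and counted as 1 sample. This left 10 distinct samples: GF 1+5, GF 2+4 and GF 6, then DM 1, DM 2+4 and DM 3+5, then Veh 1+3, Veh 2, Veh 4 and Veh 5. Values below follow that order. Whether each array came from its own animal is not in the labels, so p-values measure the spread between these samples, which may be technical. Veh 5 stood nearer to DM 1 (reduced chi-square 1.15) than to any other Veh array (3.25 to 4.09). Likewise, DM 3 and DM 5 stood nearer to every GF array (2.53 to 3.63) than to DM 1, DM 2 or DM 4 (4.87 to 5.59). As a check of the heart label, miR-1, miR-133a, miR-133b, miR-208 and miR-499, miRNAs of striated muscle, all passed the filter, while miR-206, a miRNA of skeletal muscle, lay at the floor in all 10 samples. Array brightness, the 75th percentile of the signal, was 2780 ± 529 in GF (SD, n = 3), 2027 ± 256 in DM (SD, n = 3) and 2205 ± 261 in Veh (SD, n = 4). GF exceeded Veh by 575 (two-sided exact permutation p = 0.229, adjusted p = 0.343 over 3 comparisons). Signals were divided by this percentile, and values are log2 of the scaled intensity.

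All 10 probes of the 5 members were well above background on all 15 arrays, so all 5 members passed the filter and none was at the floor of 4.30.

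**Figure D1:**
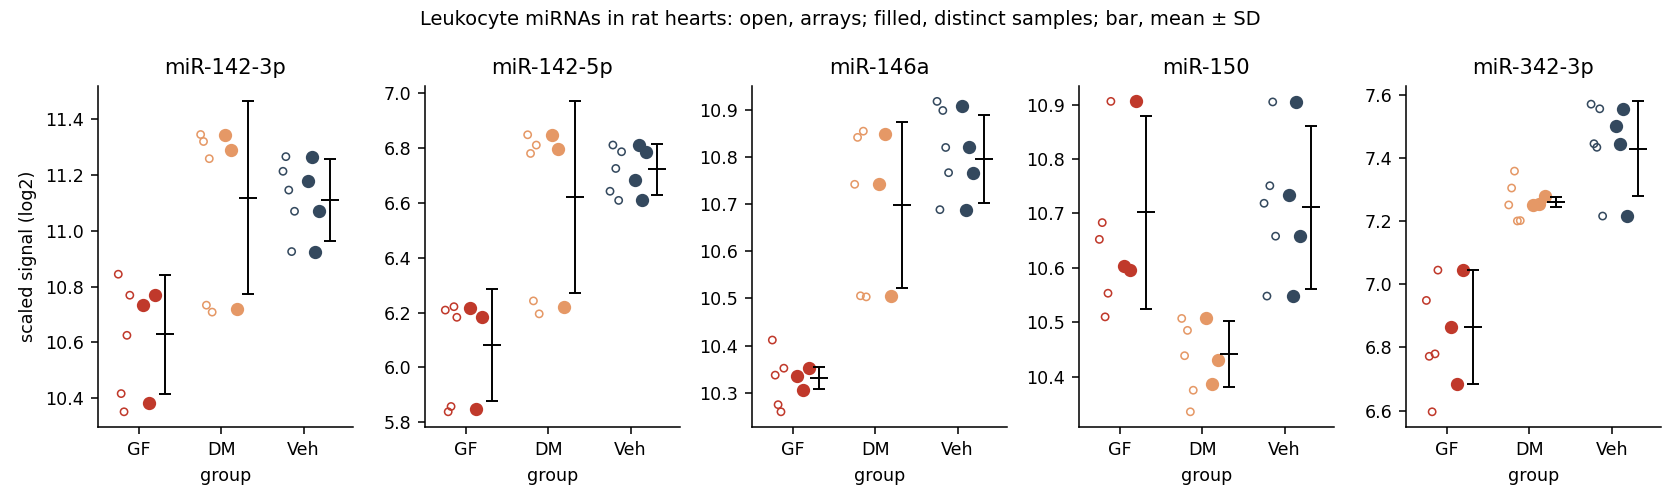
Scaled signal (log2, vertical axes with a range of their own) of the 5 miRNAs in GF, DM and Veh hearts; open points are arrays, filled points distinct samples, and bars the mean ± SD over distinct samples. For miR-146a and miR-342-3p the 3 GF samples lie below every DM and Veh sample, for miR-142-5p the highest GF and the lowest DM sample are both at 6.22, and for miR-150 the 3 DM samples lie lowest.

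The comparison of GF with Veh hearts asked how diabetes with fasting, insulin and fluctuating glucose differs from vehicle treatment. miR-342-3p, miR-142-5p and miR-146a fell in GF hearts to between 0.641 and 0.724 of their Veh signal. miR-142-3p had a difference of like size that did not pass the test, and miR-150 was at nearly the same mean in both groups. The count was therefore 3 of 5 members called, all lower, where 4.85% of the 165 tested miRNAs were called lower and 7.88% were called in either direction. At a limma p under 0.05 before adjustment 4 of the 5 members were past the threshold, as were 30.9% of the tested miRNAs. With all 15 arrays taken as independent 4 of the 5 were called, where 23.6% of the tested miRNAs were called lower and 36.4% in either direction. That fit counts the arrays of each averaged pair as separate samples, so its p-values, here and below, may be too small.

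miR-342-3p had log2 signals of 6.86, 6.68 and 7.05 in GF hearts, against 7.50, 7.45, 7.56 and 7.22 in Veh hearts. The GF samples all lay below the Veh samples, and Veh 5 was the lowest of its group. The difference was -0.57 ± 0.11 (SE; limma adjusted p = 0.0194, 95% interval -0.80 to -0.33), and miR-342-3p ranked 1 of all tested miRNAs by p.

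miR-146a, the NF-kB-induced miRNA, had log2 signals of 10.34, 10.31 and 10.35 in GF hearts, against 10.91, 10.69, 10.82 and 10.77 in Veh hearts. The GF samples lay close together and below every Veh sample. The difference was -0.46 ± 0.093 (SE; limma adjusted p = 0.0194, 95% interval -0.67 to -0.26).

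miR-142-5p had log2 signals of 6.22, 5.85 and 6.18 in GF hearts, against 6.68, 6.81, 6.61 and 6.79 in Veh hearts. GF 2+4 was the lowest sample, and the groups did not overlap. The difference was -0.64 ± 0.16 (SE; limma adjusted p = 0.0367, 95% interval -0.99 to -0.29).

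miR-142-3p, the other arm of the same hairpin, had log2 signals of 10.73, 10.38 and 10.77 in GF hearts, against 11.18, 11.27, 10.93 and 11.07 in Veh hearts. These groups did not overlap either, and GF 2+4 was again the lowest. The difference of -0.48 ± 0.17 (SE) did not pass (limma adjusted p = 0.0887, 95% interval -0.85 to -0.11), while over 15 arrays taken as independent it was -0.52 (adjusted p = 0.0121).

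miR-150 had log2 signals of 10.60, 10.60 and 10.91 in GF hearts, against 10.73, 10.55, 10.90 and 10.66 in Veh hearts. Both groups spanned nearly the same range. The difference was -0.01 ± 0.11 (SE; limma adjusted p = 0.966, 95% interval -0.25 to 0.23), and its sign turned with the scaling.

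For 4 of the 5 members every GF sample lay below every Veh sample, which 19.4% of the tested miRNAs also did. The median difference of the 5 members was -0.48 and that of all tested miRNAs -0.05.

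The calls rested on the scaling and on single samples. With no scaling between arrays 0 members were called: the median of all tested miRNAs moved to 0.24, and miR-342-3p, miR-146a and miR-142-5p stood at -0.25, -0.14 and -0.32. No member was called with the authors' deposited values, or scaled to the hur control spots or to the 75th percentile over all probes. Without Veh 1+3, Veh 2, Veh 4 or GF 2+4, 0 members were called each time, where 0 of the 165 tested miRNAs were. Without DM 3+5, 4 members were called, among 24 of the 165 tested miRNAs (14 lower). The differences with the hur spots or with a sample left out stayed near their size: miR-342-3p was at -0.55 with the hur spots and at -0.54, -0.56, -0.52 and -0.48 without Veh 1+3, Veh 2, Veh 4 and GF 2+4. Over all tested miRNAs the calls were 5 higher and 8 lower with the scaling used here, 16 higher and 2 lower with none, 15 higher and 1 lower with the 75th percentile over all probes, 10 higher and 5 lower with quantile normalization, 3 higher and 13 lower with total gene signal, and 2 higher and 0 lower with the hur control spots or the deposited values.

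The differences can also be read against the median of all tested miRNAs. Dividing an array by 1 number shifts all its miRNAs alike on the log2 scale, floor aside, so values relative to the median are nearly the same under such scalings by construction and their agreement is no support. miR-342-3p was at -0.51 relative to the median with the scaling used here and at -0.49 with none. miR-142-5p was at -0.59 and -0.56, miR-142-3p at -0.43 and -0.40, and miR-146a at -0.41 and -0.39. miR-150 was at 0.05 and 0.07. Under settings that are more than such a divisor, miR-342-3p was at -0.53 with quantile normalization, -0.35 with the normexp background correction and -0.53 with the mean of all probes. With the scaling used here, 6 of the 165 tested miRNAs had a lower difference than miR-142-5p, 8 a lower one than miR-342-3p, 15 a lower one than miR-142-3p and 17 a lower one than miR-146a.

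**Figure D2:**
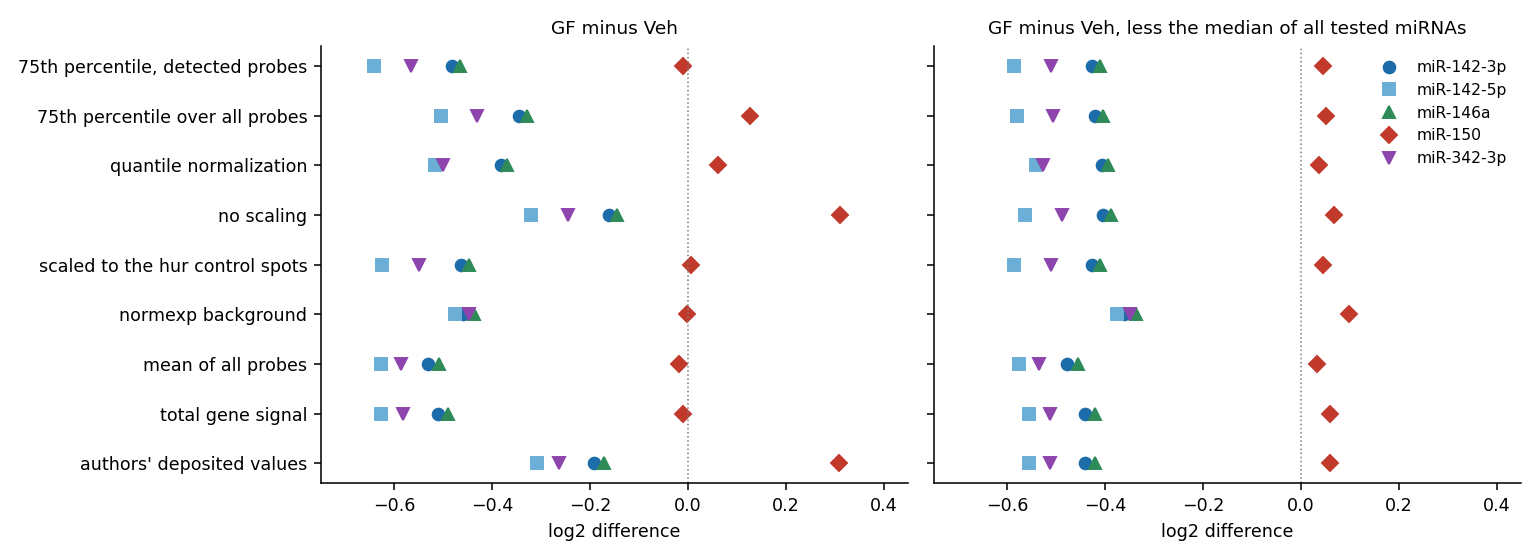
GF minus Veh (log2 difference, horizontal axes) of the 5 miRNAs under 9 scalings and summaries, as computed (left) and less the median of all tested miRNAs (right). On the left the points move together, with miR-342-3p between -0.59 and -0.25. On the right, any scaling by 1 number per array nearly cancels by construction. There miR-150 lies between 0.03 and 0.10 and the other 4 between -0.59 and -0.34.

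The 2 slides are not separate evidence, since GF 1 and 5, GF 2 and 4, and Veh 1 and 3 are close pairs with 1 array on each slide. GF minus Veh was -0.65 on slide 1 and -0.60 on slide 2 for miR-342-3p, and -0.43 and -0.53 for miR-146a. For miR-142-5p it was -0.70 and -0.62. On either slide alone 0 members were called, where 0 of the 165 tested miRNAs were. The dimmer probe of each member gave a GF minus Veh difference within 0.0974 of the brighter one.

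The comparison of DM with Veh hearts asked what steady diabetes did. None of the 5 members was called (0 of 5, where 0% of the tested miRNAs were; 14 miRNAs, or 8.48%, had a limma p under 0.05 before adjustment). The member farthest from 0 was miR-150, the lymphocyte miRNA.

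miR-150 had log2 signals of 10.51, 10.39 and 10.43 in DM hearts, against 10.73, 10.55, 10.90 and 10.66 in Veh hearts. Every DM sample lay below every Veh sample, as for 4.85% of the tested miRNAs. The difference of -0.27 ± 0.11 (SE) did not pass (limma adjusted p = 0.468), and was -0.16 on slide 1 and -0.42 on slide 2. It was negative under each alternative that was run, fits within a slide included, from -0.42 to -0.13.

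For the other 4 members the DM and Veh samples overlapped. miR-342-3p had log2 signals of 7.25, 7.25 and 7.28 in DM hearts, a mean of 7.26 ± 0.016 (SD, n = 3), against 7.43 ± 0.15 in Veh hearts (SD, n = 4). Its difference was -0.17 (95% interval -0.41 to 0.07). miR-146a had 10.74, 10.85 and 10.50 in DM hearts, and its difference from Veh was -0.10 (95% interval -0.31 to 0.11).

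The arms of miR-142 set DM 3+5 apart from the other DM samples, as the profiles of the whole arrays also did. miR-142-3p had log2 signals of 11.35, 11.29 and 10.72, and miR-142-5p had 6.85, 6.80 and 6.22, in DM 1, DM 2+4 and DM 3+5. DM 1 and DM 2+4 lay above every Veh sample in miR-142-3p, while DM 3+5 lay among the GF samples in miR-142-3p and level with the highest of them in miR-142-5p, where both were at 6.22. DM minus Veh was therefore near 0, at 0.01 for miR-142-3p (95% interval -0.36 to 0.38) and -0.10 for miR-142-5p (95% interval -0.45 to 0.25). Without DM 3+5 these were 0.21 and 0.10. The median DM minus Veh difference of the 5 members was -0.10 and that of all tested miRNAs 0.03.

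The comparison of GF with DM hearts asked what fasting, insulin and fluctuating glucose together added to diabetes. None of the 5 members was called (0 of 5, where 0% of the tested miRNAs were). All 5 had a limma p under 0.05 before adjustment, which held for 18 tested miRNAs, or 10.9%. The comparisons of GF with DM and of GF with Veh share the GF samples.

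The GF minus DM difference was -0.54 ± 0.17 for miR-142-5p, -0.40 ± 0.11 for miR-342-3p and -0.37 ± 0.099 for miR-146a (SE; limma adjusted p = 0.272 each). In miR-342-3p and miR-146a every GF sample lay below every DM sample. The same was so of miR-142-5p by a narrow gap, with GF 1+5 at 6.215 and DM 3+5 at 6.219, and the single array GF 5 lay above DM 5 (6.222 against 6.196). With miR-142-5p counted, 3 members did not overlap, as for 12.7% of the tested miRNAs. miR-142-3p overlapped, since DM 3+5 at 10.72 lay among the GF samples, and its difference was -0.49 ± 0.18 (SE; limma adjusted p = 0.408). The dimmer probe of miR-146a gave -0.51 here. The median of the 5 members was -0.40 and that of all tested miRNAs -0.08.

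miR-150 alone among the 5 was higher in GF than in DM hearts. Its log2 signals were 10.60, 10.60 and 10.91 in GF hearts, against 10.51, 10.39 and 10.43 in DM hearts, and the groups did not overlap, as for 1.82% of the tested miRNAs in that direction. The difference of 0.26 ± 0.11 (SE) did not pass (limma adjusted p = 0.418). In the authors' deposited table of a 3-group test without correction, miR-150 was the 1 member of the 5 among 35 listed miRNAs, with a p of 0.0339. How many miRNAs passed the authors' filter is given below, under the processing. Whether members were listed more often than other miRNAs was not tested, so the listing is no separate support for miR-150. The authors' deposited table gives miR-150 a GF over DM log2 ratio of 0.61, on values that were not scaled between arrays. On the distinct samples the difference with no scaling was 0.71 (limma adjusted p = 0.145), where the median of all tested miRNAs was 0.35. Relative to the median miR-150 was at 0.34 with the scaling used here and at 0.35 with none, values that a divisor per array leaves nearly the same by construction.

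With no scaling the GF minus DM differences of miR-146a and miR-342-3p turned to 0.08 and 0.05. With all 15 arrays taken as independent, 3 members were called, where 3.64% of the tested miRNAs were: miR-342-3p (limma adjusted p = 0.0121), miR-146a (0.0135) and miR-142-5p (0.0488). Without DM 3+5, the members called over the distinct samples were miR-142-5p (limma adjusted p = 0.0197), miR-146a (0.0245) and miR-142-3p (0.0318), among 6 of the 165 tested miRNAs, and miR-342-3p was not called (0.147).

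**Figure D3:**
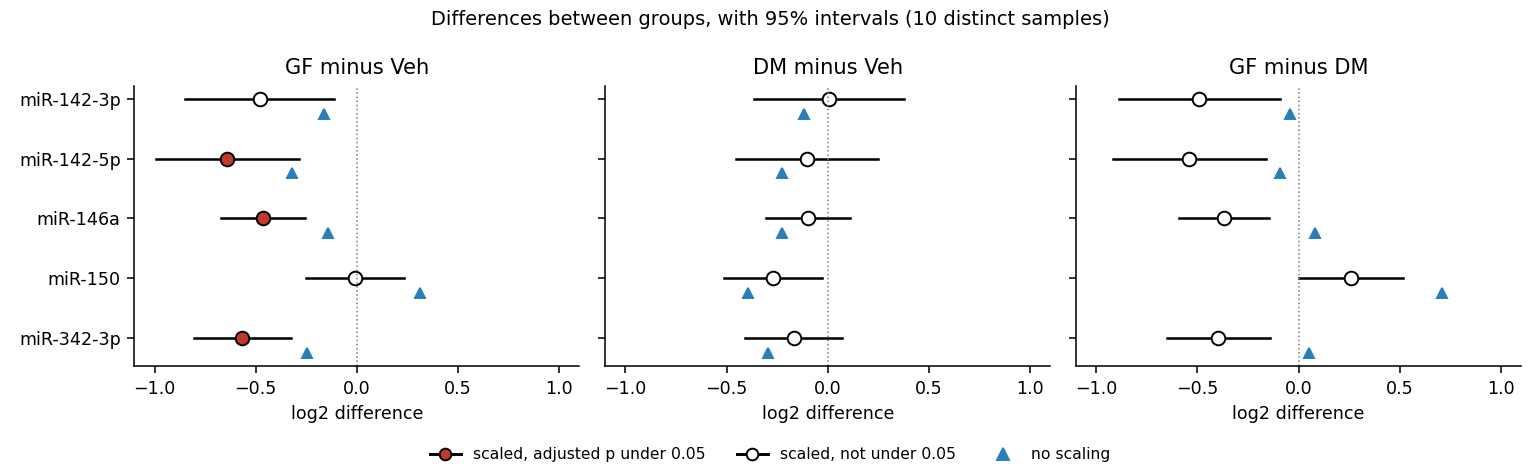
Log2 differences of the 5 miRNAs for GF minus Veh, DM minus Veh and GF minus DM (horizontal axes), with 95% intervals over 10 distinct samples; red circles passed the adjusted threshold of 0.05, open circles did not, and triangles are the differences with no scaling. The 3 red circles, at -0.64, -0.46 and -0.57, are all in GF minus Veh, and every triangle there lies to the right of its circle.

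Differences between miRNAs of the same array do not depend on how that array is scaled, although their size also holds each probe's own response and is read here only between groups. miR-142-3p minus miR-142-5p was 4.52, 4.54 and 4.59 in GF hearts, 4.50, 4.49 and 4.50 in DM hearts, and 4.50, 4.45, 4.32 and 4.28 in Veh hearts. GF samples were the highest and Veh 4 and Veh 5 the lowest. The mean difference between GF and Veh was 0.16, and its exact permutation p (two-sided) was 0.0571, the smallest that 3 against 4 samples allow (adjusted p = 0.114 over 3 comparisons). With the normexp background correction it was 0.02, and no unequal change of the arms was shown.

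miR-150 minus the mean of the other 4 members, a quantity added after the values were seen and given with no test, was 2.07, 2.29 and 2.32 in GF hearts, 1.46, 1.34 and 1.75 in DM hearts, and 1.67, 1.50, 1.93 and 1.70 in Veh hearts. The 3 GF samples lay above the other 7. The mean was higher by 0.53 in GF than in Veh hearts and by 0.71 in GF than in DM hearts. Over the alternatives these ran from 0.45 to 0.61 and from 0.62 to 0.82. A divisor per array cancels in this quantity by construction, and miR-150 was set against the other 4 after the values were seen. Neither the separation of the GF samples nor the narrow range is therefore support.

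**Figure D4:**
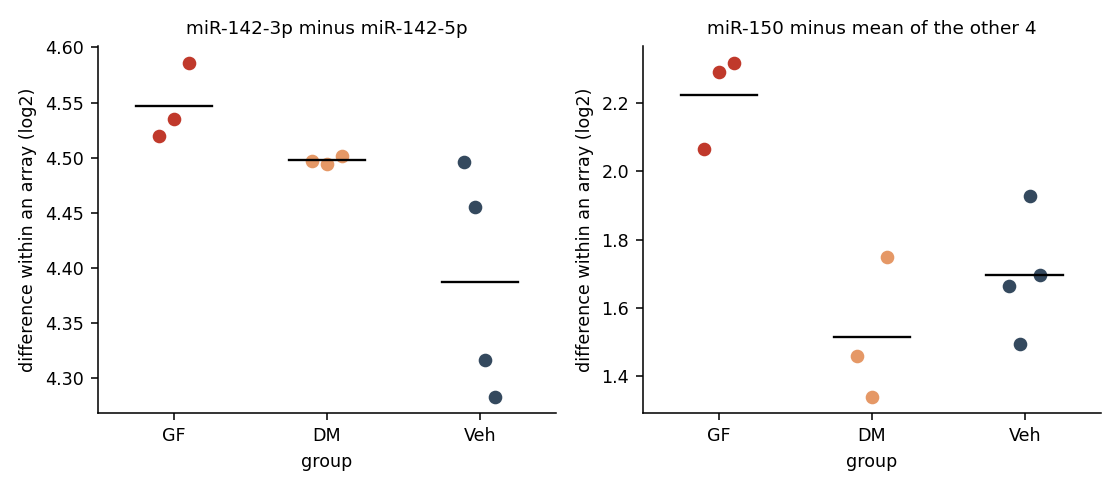
Differences between miRNAs within a sample (log2, vertical axes not starting at 0) in GF, DM and Veh hearts, with a point per distinct sample and a line at the group mean. The arms of miR-142 (left) have means of 4.55, 4.50 and 4.39, and miR-150 less the mean of the other 4 (right) has means of 2.23, 1.52 and 1.70.

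Over the 10 samples the members other than miR-150 went together. Pearson's r was 0.97 between the arms of miR-142 and from 0.70 to 0.89 between the other pairs of these 4, while miR-150 had r from -0.23 to 0.13 with them. These values hold the group differences and share each array's scaling. On deviations from the group means, the arms of miR-142 kept an r of 0.96, miR-342-3p had 0.22 and 0.09 with miR-142-3p and miR-142-5p, and miR-150 had 0.67 with miR-342-3p.

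The tested miRNAs most alike in their values over the 10 samples, by Pearson's r, were miR-9 for both arms of miR-142 (0.88 for miR-142-3p and 0.95 for miR-142-5p) after the arms themselves. For miR-146a they were the cardiac miR-208 (0.92) and miR-497 (0.91). For miR-342-3p they were miR-181d (0.96) and miR-345-5p (0.94), and for miR-150 they were miR-25 (0.80) and the red cell miR-451 (0.60). On deviations from group means, miR-142-5p kept miR-9 (0.91) and miR-342-3p kept miR-181d (0.89), whereas miR-150 was most like let-7b (0.79) and miR-499 (0.77).

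Of 8 other miRNAs of white blood cells that were listed, 5 were on the array and 4 were tested. miR-155, miR-146a* and miR-150* were not on the array under those names. Over the 10 distinct samples 0 of the 4 were called in any contrast. Of all tested miRNAs 7.88% were called in GF minus Veh, and 0% in DM minus Veh and in GF minus DM. miR-223, which marks neutrophils and other myeloid cells, had log2 means of 9.51 ± 0.14 in GF (SD, n = 3), 9.35 ± 0.089 in DM (SD, n = 3) and 8.99 ± 0.30 in Veh hearts (SD, n = 4). It stood 0.51 above Veh in GF hearts, opposite in sign to the 4 members, without passing (limma adjusted p = 0.0611). With all 15 arrays taken as independent miR-223 was at 0.59 (limma adjusted p = 0.00128), the 1 of these 4 miRNAs called in GF minus Veh. miR-146b, with the seed of miR-146a, was at -0.15 in GF minus Veh (95% interval -0.37 to 0.07). miR-181a and miR-181b, which are abundant in thymocytes, were at -0.17 and -0.09. miR-342-5p, from the other arm of the miR-342 hairpin, lay at the floor in all 10 samples. The summed scaled signal of this list ran from 1542 to 1678 in GF, 1609 to 1649 in DM and 1419 to 1654 in Veh hearts, and that of the 5 members from 4311 to 5175 in GF, 4750 to 6039 in DM and 5768 to 6231 in Veh hearts.

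Of the lists of other cell types, 1 miRNA, miR-208, was called in GF minus Veh. Both red cell miRNAs, miR-451 and miR-144, lay lower in every GF than in every Veh sample (-0.36 and -0.34, not called), as did 19.4% of the tested miRNAs. Their summed signal was 4591 to 5920 in GF, 3438 to 6161 in DM and 6132 to 7329 in Veh hearts. The endothelial miR-126 and miR-126* also lay lower in every GF than in every Veh sample (-0.37 and -0.28, not called). Their sums were 15614 to 16912 in GF, 17442 to 20734 in DM and 19194 to 23743 in Veh hearts. Of 5 striated muscle miRNAs, miR-208 fell (-1.34, limma adjusted p = 0.0194) and the other 4 ran from -0.34 to -0.14 without passing. The fibroblast-rich miR-199a-3p, miR-199a-5p and miR-214 stood at -0.39, -0.48 and -0.57 and miR-21 at 0.32, and the smooth muscle miR-143 and miR-145 at 0.15 and 0.10, none of them called. Every GF sample also lay below every Veh sample for miR-133a, miR-208, miR-199a-3p and miR-199a-5p, and for miR-181b among the white blood cell miRNAs. With all 15 arrays taken as independent, GF minus Veh had calls for 2 of 2 red cell, 2 of 2 endothelial and 4 of 5 striated muscle miRNAs. It had calls for 4 of 4 fibroblast-rich and 0 of 2 smooth muscle miRNAs, where 36.4% of the tested miRNAs were called in either direction. The part of these cell types in the differences of the 5 members was not tested. In whole hearts, fewer white blood cells and less of a miRNA per cell cannot be told apart.

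**Figure D5:**
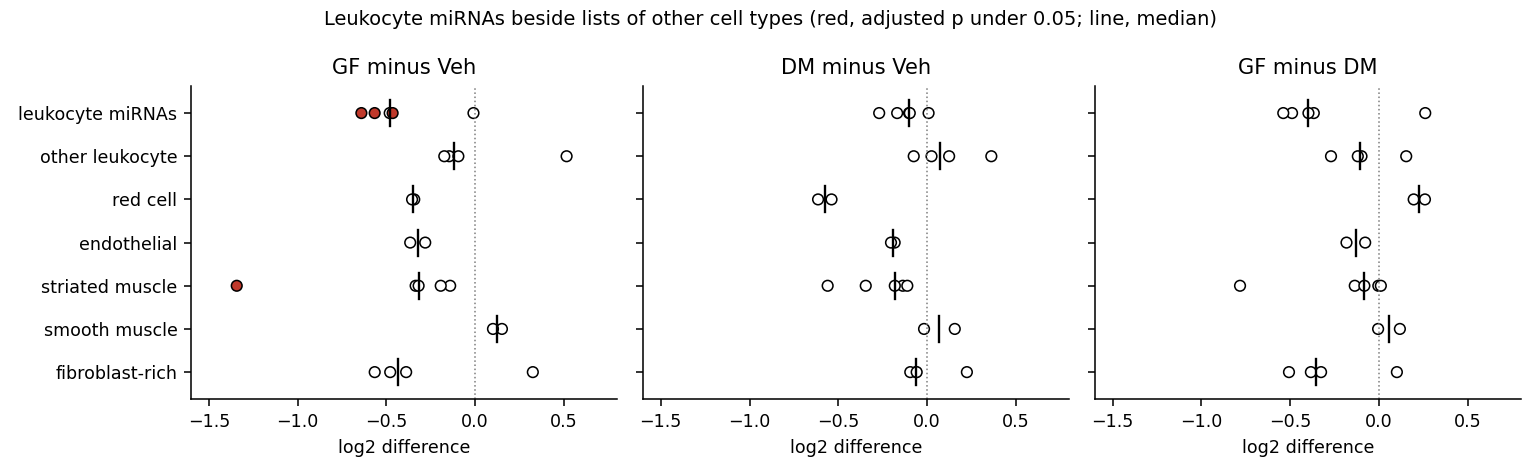
Log2 differences (horizontal axes) of the 5 leukocyte miRNAs and of 6 lists of other cell types in each contrast, with a point per tested miRNA, red where the adjusted p was under 0.05, and a line at the list median. In GF minus Veh the medians are -0.48 for the 5 leukocyte miRNAs, -0.43 for fibroblast-rich miRNAs and -0.12 for other leukocyte miRNAs. They are -0.35 for red cell, -0.32 for endothelial, -0.32 for striated muscle and 0.13 for smooth muscle miRNAs.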

How the data were processed

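Per the file headers, the scanner software was Agilent Feature Extraction 9.5.3.1. Per the deposited array files, each spot has an intensity from which background was subtracted, with no scaling across arrays. Log2 values for 149 miRNAs that passed the authors' filter are in a table the authors deposited, and were recomputed here as log2 total gene signal minus the Veh mean (largest difference 2.05e-06). The authors' deposited comparison tables hold a p-value without correction and log2 ratios.

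Flagged spots were dropped, spots averaged per probe, and each array divided by the 75th percentile of the 254 probes that exceeded background on all 15 arrays. Signals under 19.7 were set to that floor. The brightest probe stood for each miRNA, and a miRNA was tested if that probe exceeded background on 3 or more of the 5 arrays of a group. Arrays of a group with a reduced chi-square under 1 were averaged. All groups entered 1 fit with limma 3.58.1 in R 4.3.3 (lmFit, eBayes). Its two-sided p-values were adjusted over the 165 miRNAs of each contrast by the Benjamini-Hochberg method. Single values had exact permutation tests (scipy 1.17.1). Named miRNAs were the members, the marker lists and the 2 most alike miRNAs of each member. The members and lists were chosen with earlier results of these data known. The background alternative (normexp, offset 50) used the median signal, since the files give no mean signal. The scripts were tested on simulated data. Matching by name gave RefSeq mature sequences for 4 of 5 members.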

Additional observations from a re-analysis of the deposited data

How the results depend on the processing

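The number of arrays and of distinct samples limits every value, and 1 sample can decide a call. In GF minus Veh, 0 members were called with the 75th percentile over all probes, no scaling, the hur control spots, the authors' deposited values, no filter on dim probes (350 miRNAs adjusted for), further arrays merged (8 samples), or slide 1 or slide 2 alone, and 0 to 4 when each distinct sample was left out. In GF minus DM the count was 1 with normexp, where 1 of the 165 tested miRNAs was called. It was 3 with 15 arrays (6 called of all tested) and 2 with the slide as a block (5 called). With a sample left out it was 0 to 3 (0 to 6 called). The cause was not tested. In DM minus Veh it was 0 throughout.

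Whether replicate numbers pair the samples was not settled: over 13 same-numbered pairs r ran from -0.53 to 0.47, with 6 over 0.1. Pairs with different numbers were not set beside them. With the replicate block on 15 arrays, 4 members were called in GF minus Veh, among 50 of the 165 tested miRNAs. In DM minus Veh 0 members were called, among 4 miRNAs, and in GF minus DM 1 member, the 1 miRNA called.

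Over all tested miRNAs, GF minus Veh had 13 calls, against 60 with 15 arrays, 57 with the slide block, 50 with the replicate block, 21 with the mean of all probes, 2 with the hur spots or deposited values, 0 unfiltered or merged, and 0 to 28 with a sample left out. DM minus Veh had 0, against 3 with 15 arrays or the slide block 4 with the replicate block, and 2 on slide 2 or without DM 1. GF minus DM had 0, against 6, 5 and 1 under these, 1 with no scaling or normexp, and 6 without DM 3+5.

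Signs turned as follows, none past the threshold. For miR-150 GF minus Veh was 0.062 with quantile normalization, 0.13 with the 75th percentile over all probes, 0.31 with no scaling or deposited values, 0.0070 with the hur spots, 0.036 merged, 0.034 on slide 1, and -0.11 to 0.055 with a sample left out. For miR-142-3p DM minus Veh was -0.12 with no scaling, -0.0053 with the mean of probes, -0.051 with total gene signal, 15 arrays or the replicate block, -0.13 with deposited values or merged, -0.00014 with pairs as a random block, -0.077 with the slide block, -0.11 on slide 1, -0.064 on slide 2, and -0.11 to 0.21 with a sample left out. DM minus Veh was 0.038 (hur spots) and 0.11 (normexp) for miR-142-5p, with -0.22 to 0.099 when a sample was left out, 0.042 (hur spots) for miR-146a and 0.011 (normexp) for miR-342-3p. GF minus DM was 0.080 with no scaling and 0.037 with deposited values for miR-146a, and 0.049 and 0.023 for miR-342-3p. The arm difference of miR-142 was -0.094 in DM minus Veh with normexp and -0.0014 in GF minus DM with the mean of probes. The fits within a slide and the miR-150 difference were chosen after seeing the data.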
